A study of Mus musculus with 18 samples.

Results

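The genes described here encode enzymes and a chaperone that modify collagen chains before and after secretion: the lysyl oxidase-like genes Loxl1, Loxl2, Loxl3 and Loxl4, the lysyl hydroxylases Plod1, Plod2 and Plod3, the prolyl 4-hydroxylase alpha subunits P4ha1 and P4ha2, and the chaperone gene Serpinh1. They were taken by symbol from the deposited count tables. All 10 symbols were found among 34591, and all 10 passed the filter on low counts in both series of libraries. The cells were 4T1, a mouse mammary carcinoma line, and polyadenylated RNA was sequenced in 6 groups of 3 libraries. Parental 4T1 cells received fresh RPMI medium alone (untreated) or with 2 ng/mL recombinant human TGFb1, and RNA was taken 24 h later. The other 4 groups were stable lines made by lentiviral transduction and puromycin selection. One line held the vector without an insert (EV) and the other overexpressed Wisp1, a matricellular protein also called CCN4, and each was grown on tissue culture plastic or on plastic coated with type I collagen and collected before confluence. All groups were 4T1 cells kept in RPMI with serum and antibiotics; the labels do not say whether the fresh medium of the parental groups held serum. The labels also do not say how many clones a stable line holds. The collagen under these cells was supplied as a coating.

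Collagen chains are hydroxylated in the endoplasmic reticulum before they fold. Prolyl 4-hydroxylases make the hydroxyproline that stabilises the triple helix, and lysyl hydroxylases make the hydroxylysine that carries sugars and feeds the strongest crosslinks. Serpinh1 (HSP47) holds the folded procollagen helix on its way to the Golgi, and after secretion the lysyl oxidases oxidise lysine side chains so that neighbouring collagen and elastin molecules become covalently joined. In tumours these enzymes are studied as stiffeners of the matrix, and several of their genes are known responders to TGF-beta and to low oxygen.

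RefSeq promoter sequences (GRCm38.p6) were held for 6 of the 10 genes, Loxl4, Plod1, Plod3, P4ha1, P4ha2 and Serpinh1. They are shown because TGF-beta and hypoxia act through short DNA strings that can be looked for in these windows. The strings searched, on both strands, were CAGAC, the core of a Smad-binding element, and ACGTG and GCGTG, the core of a hypoxia response element. Each window ran from 250 bases before to 50 bases after the annotated start. Capitals mark 1 match in each stretch below, which is CAGAC where the promoter holds it and ACGTG where it does not, and a match on the other strand reads GTCTG or CACGT.
Loxl4, chr19:42612998-42613056, minus strand: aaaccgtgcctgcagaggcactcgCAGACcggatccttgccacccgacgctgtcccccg
Plod1, chr4:147936816-147936880, minus strand: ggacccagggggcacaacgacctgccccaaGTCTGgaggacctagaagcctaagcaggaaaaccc
Serpinh1, chr7:99353417-99353481, minus strand: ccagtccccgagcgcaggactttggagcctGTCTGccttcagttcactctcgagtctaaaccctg
Plod3, chr5:136986935-136986999, plus strand: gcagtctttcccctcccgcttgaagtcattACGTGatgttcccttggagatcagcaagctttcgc
P4ha1, chr10:59323250-59323295, plus strand: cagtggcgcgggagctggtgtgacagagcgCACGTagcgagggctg
P4ha2, chr11:54100816-54100880, plus strand: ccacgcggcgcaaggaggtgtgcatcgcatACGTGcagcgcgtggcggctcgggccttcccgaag

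The CAGAC string stood 226 bases before the start in Loxl4, 74 in Plod1 and 212 in Serpinh1, and was not found in the windows of Plod3, P4ha1 and P4ha2. It was present in 49.6% of the 32851 promoter windows in the table. ACGTG or GCGTG was present in all 6 of these windows and in 43.8% of all windows. The 6 windows held between 53.3% and 75% G and C, against a median of 52.7% over all windows. A match describes letters in a window, and binding was not measured.

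The libraries held 37552858 to 94401699 reads counted to genes. Levels are given as CPM, a gene's read count scaled to a common library size, after TMM scaling over all 18 libraries. Wisp1, the gene carried by the vector, was at 51.7 ± 18.2 CPM in EV cells on plastic and 957 ± 94.9 in Wisp1 cells on plastic (SD, n = 3), and at 15.3 ± 1.08 and 1088 ± 33.0 CPM on collagen. In parental cells Wisp1 stood at 22.3 ± 15.7 CPM untreated and 425 ± 167 CPM after TGFb1. All 8 epithelial markers (Krt7, Krt8, Krt18, Cldn4, Cldn7, Cdh1, Epcam and Esrp1) had counts in every library. Fibroblast markers summed to 47.2 to 66.9 CPM in untreated and 107 to 132 CPM in TGFb1-treated libraries, with Thy1 at 0 in all 6 and Dcn at a mean of 0.0561 and 0.0464 CPM. That sum was led by Pdgfra in untreated cells, at 48.0 CPM, and by Postn after TGFb1, at 65.1 CPM.

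Serpinh1 was the most abundant of the 10 genes per kilobase of exon, with group means of 132.5 to 180.9 CPM per kilobase. Loxl4 followed at 50 to 79.1, then Plod2 at 19.7 to 46.1, Plod3 at 26.4 to 36.4 and P4ha1 at 19.2 to 29.1 CPM per kilobase. Loxl3, Plod1 and P4ha2 lay between 2.74 and 10.5 CPM per kilobase. Loxl2 and Loxl1 were close to the detection limit, at 0.055 to 0.418 and 0.157 to 0.322 CPM per kilobase. Lox, the founding gene of the lysyl oxidase family, was too low to be tested: it had 0, 1 and 1 counts in the untreated libraries, 11, 7 and 13 after TGFb1, and 0 to 4 in each stable-line library. The main members in these cells were Serpinh1, Loxl4, Plod2, Plod3 and P4ha1, with the other members present at lower levels.

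**Figure D1:**
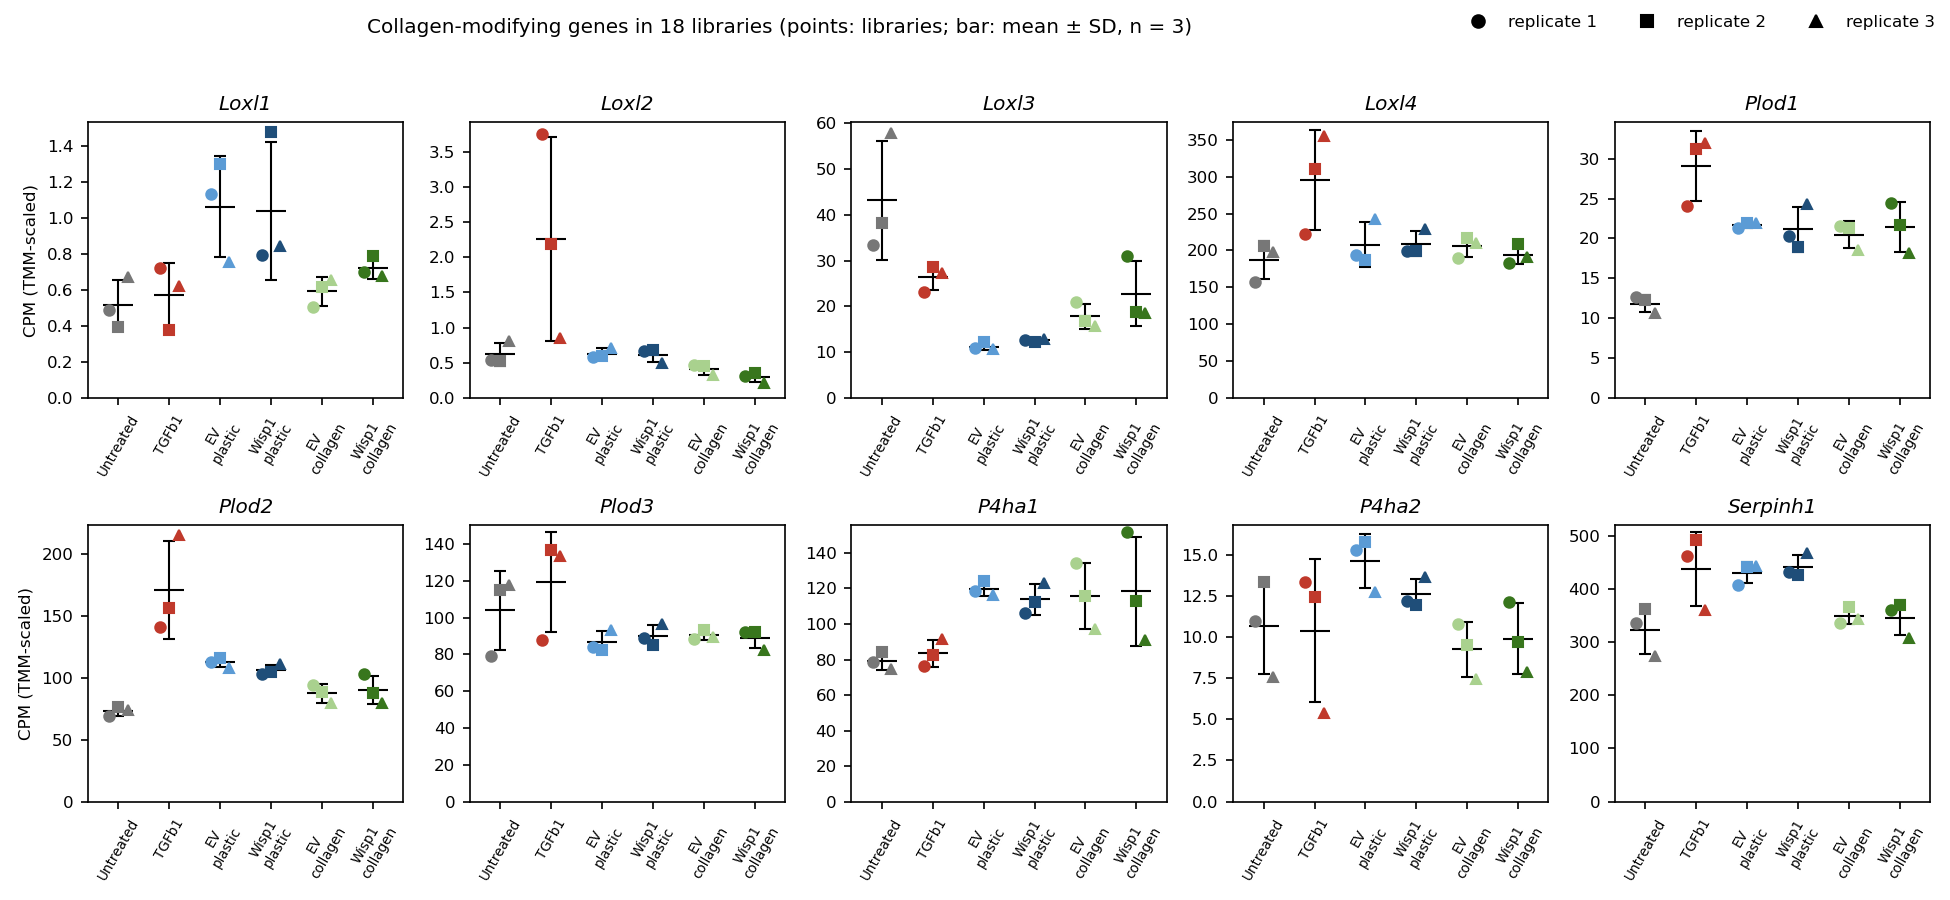
Level of each of the 10 genes, in TMM-scaled CPM on a linear axis from 0, for every library; symbols give the replicate number and black bars the mean and SD of 3 libraries. Plod1 and Plod2 stand higher in all 3 TGFb1 libraries than in the untreated ones, Loxl2 does so strongly in 2 libraries, and Loxl3 is lowest on plastic in the stable lines.

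TGFb1 raised 2 lysyl hydroxylase genes, Plod1 and Plod2, more than 2-fold. With the treated and untreated libraries taken as pairs, Loxl2, Loxl4, Plod3 and Serpinh1 were also higher and Loxl3 was lower, while Loxl1, P4ha1 and P4ha2 were not called. With edgeR's quasi-likelihood test and Benjamini-Hochberg adjustment over 14874 genes, 2 of the 10 members were called, both higher, against 11.1% of all genes called in either direction, 6.14% called higher and 4.92% lower. The replicate numbers of the 3 untreated and 3 treated libraries pair them, and with the pair as a block 7 members were called, 6 higher and 1 lower, against 44.9% of all genes, 22.4% higher and 22.5% lower. DESeq2 called 5 members and 19.6% of genes, limma-voom 2 members and 11.2% of genes, and a fit over all 18 libraries 6 members and 32.4% of genes. The members' median log2 change was 0.30 and that of all tested genes -0.01. A level in a culture cannot tell fewer expressing cells from less RNA per cell.

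Plod1 encodes the lysyl hydroxylase that acts on helical lysines of fibrillar collagens. Its level was 12.7, 12.3 and 10.6 CPM in the untreated libraries and 24.1, 31.3 and 31.9 CPM after TGFb1. The groups did not overlap, and the log2 change was 1.28 ± 0.16 (SE), a 2.43-fold rise with an edgeR adjusted p of 0.0061. The 3 pairs gave folds of 1.90, 2.55 and 3.01.

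Plod2 encodes the telopeptide lysyl hydroxylase, whose product directs collagen towards hydroxylysine-derived crosslinks. It stood at 68.9, 76.5 and 73.8 CPM in untreated cells and at 141, 157 and 216 CPM in treated cells. All 3 treated libraries lay above all untreated ones. Its log2 change of 1.21 ± 0.17, or 2.31-fold, had an edgeR adjusted p of 0.0089, which became 0.051 when the untreated replicate 2 was left out and 0.00048 with the pairs as a block.

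Plod3, the family member that also transfers sugars to hydroxylysine, stayed close to its untreated level. It measured 79.1, 115 and 118 CPM without and 88.0, 137 and 133 CPM with TGFb1, and the groups overlapped. The log2 change was 0.18 ± 0.22 with an edgeR adjusted p of 0.69. Every pair was slightly higher with TGFb1, by 1.11-, 1.19- and 1.13-fold, and the blocked fit called the gene with an adjusted p of 0.025, a call that was lost without the second pair. Plod3 shares exon sequence with Znhit1 on the opposite strand, which had a log2 change of -0.02. Of the summed length-scaled level of the 3 Plod genes, Plod2 made up 36.3 ± 3.39% in untreated and 50.9 ± 4.62% in treated cells, while Plod3 went from 57.6 ± 4.72% to 40.1 ± 4.27% (SD, n = 3). These shares describe which paralog dominated and were not tested.

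Loxl4, by far the most abundant lysyl oxidase-like gene here, measured 158, 206 and 197 CPM in untreated and 222, 309.8 and 356 CPM in treated libraries. The lowest treated library was above the highest untreated one. Its log2 change of 0.64 ± 0.19 missed the threshold without the block, with an edgeR adjusted p of 0.085, and the paired fit gave 0.63 ± 0.08 with an adjusted p of 0.00085. The pairs differed by 1.41-, 1.504- and 1.80-fold.

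Loxl3 moved the other way. It encodes a lysyl oxidase-like enzyme needed in the embryo for cartilage and palate. Its level was 33.3, 38.3 and 57.9 CPM in untreated libraries and 23.2, 28.6 and 27.4 CPM with TGFb1, again without overlap, and untreated replicate 3 was the highest library. The log2 change was -0.73 ± 0.22 with an edgeR adjusted p of 0.089, and -0.69 ± 0.13 with 0.0058 in the paired fit. DESeq2 and the fit over all 18 libraries, both without the block, also called Loxl3 lower, with adjusted p values of 0.0177 and 0.0133. By exon positions in GENCODE M21 (GRCm38) Loxl3 overlaps Htra2 on the opposite strand; Htra2 had a log2 change of -0.34 with an edgeR adjusted p of 0.15, and whether the counting used strand is not given in the sources used here.

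Loxl2, a scavenger-receptor-domain lysyl oxidase that is also known for a nuclear role in epithelial-mesenchymal transition, showed the widest range of any member. It measured 0.537, 0.524 and 0.812 CPM in untreated libraries, or 45, 40 and 68 counts, and 3.74, 2.19 and 0.851 CPM with TGFb1, or 311, 187 and 59 counts. The first 2 pairs differed by 6.97- and 4.18-fold and the third by 1.05-fold, and treated replicate 3 sat just above the untreated range. The log2 change of 1.84 ± 0.55 had an edgeR adjusted p of 0.086, and the paired fit gave 1.68 ± 0.49 with 0.034. That paired call was lost when the first or the second pair was left out, and its adjusted p was 4.09e-07 without the third. Leaving treated replicate 3 out of the unpaired fit gave a log2 change of 2.23 with an adjusted p of 0.0284. Loxl1, the elastin-associated member, had a log2 change of 0.13 ± 0.37, from 0.393 to 0.669 CPM in untreated and 0.375 to 0.722 CPM in treated libraries. Within the length-scaled sum of the 4 Loxl genes, Loxl4 made up 82.4 ± 3.49% without and 91.6 ± 1.56% with TGFb1, and Loxl3 17.2 ± 3.41% and 7.62 ± 1.04%.

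Serpinh1 measured 335, 362 and 274 CPM in untreated and 462, 493 and 359.8 CPM in treated libraries, and the groups overlapped because replicate 3 was the lowest library in both. Within pairs the difference was even, at 1.38-, 1.36- and 1.31-fold. The log2 change was 0.42 ± 0.16 with an edgeR adjusted p of 0.16, and 0.42 ± 0.05 with 0.00047 once pairs were the block.

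P4ha1 and P4ha2, the prolyl 4-hydroxylase genes among the members, gave no call in either fit. P4ha3, an alpha subunit gene that is not a member, was called higher in both fits and is described with the partner genes. P4ha1, the main catalytic subunit, had a log2 change of 0.06 ± 0.11, with 78.6, 84.1 and 74.6 CPM without and 76.3, 82.5 and 91.7 CPM with TGFb1. P4ha2 had a log2 change of -0.05 ± 0.38, with 10.97, 13.4 and 7.58 CPM without and 13.3, 12.4 and 5.41 CPM with TGFb1. Replicate 3 was the lowest of its group for P4ha2 in both groups, and the pairs pointed in different directions for both P4ha1 and P4ha2.

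Of the 10 members, Loxl2, Loxl4, Plod1 and Plod2 had every treated library above every untreated one and Loxl3 had every treated library below, 5 in all. Of all tested genes 30.7% had groups that did not overlap, 16.5% with the treated libraries above and 14.2% with them below. The fibroblast marker sum was higher in the same treated libraries. Of 9 listed fibroblast markers 5 were tested and 2 were called higher by edgeR, Postn from 9.0 to 65.1 CPM (adjusted p 0.0069) and Pdgfrb from 0.208 to 1.70 CPM (adjusted p 0.026), with a median log2 change of 2.13 over the tested ones. With the block edgeR called 3 higher, Col1a2 being the added one (adjusted p 0.018). Col1a2 averaged 0.279 and 1.24 CPM and Dpt 0.00398 and 0.0439 CPM, in untreated and treated cells. Pdgfra and Col3a1 averaged 48.0 and 52.5 CPM and 0.175 and 0.288 CPM. Thy1 was at 0, and Lum averaged 0.0203 and 0.0253 CPM. Of 8 epithelial markers 0 were called without the block, and 2 were higher and 3 lower with it. Of 8 listed leukocyte markers 3 were tested. Csf1r was called higher, from 0.166 to 2.40 CPM (edgeR adjusted p 0.0095), and Ptprc lower, from 0.639 to 0.165 CPM (adjusted p 0.018). The part of these transcripts in the results for the 10 genes was not tested.

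**Figure D2:**
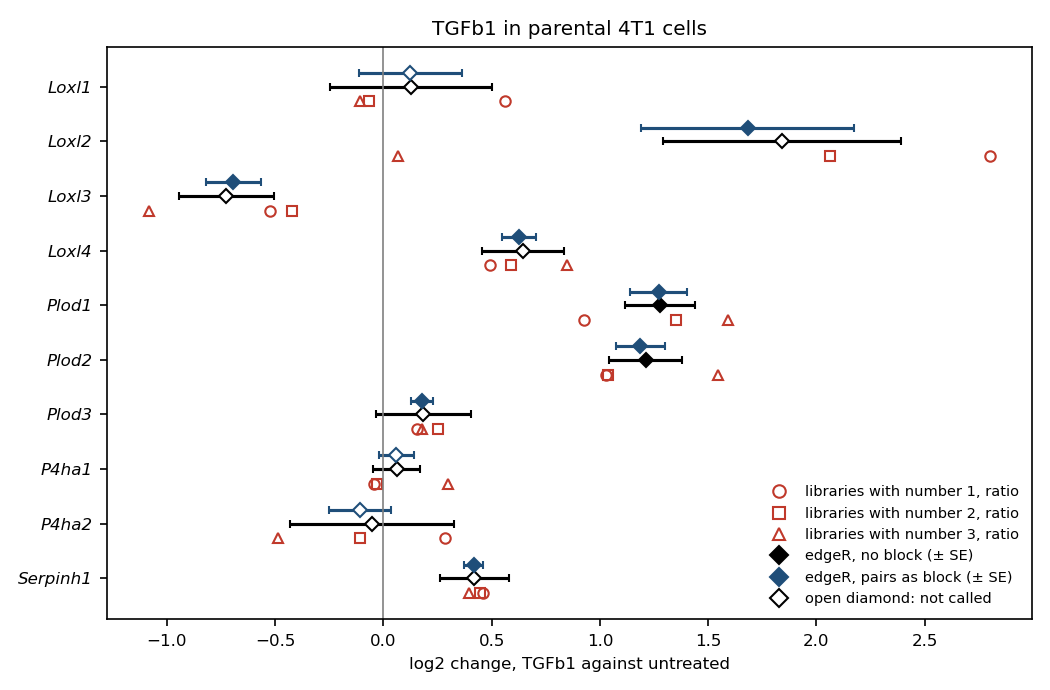
Log2 change between TGFb1-treated and untreated parental cells for each gene: red open symbols are the 3 ratios of same-numbered libraries, black diamonds the edgeR estimate without a block and blue diamonds the estimate with pairs as a block, with SE, filled where the adjusted p was under 0.05. The filled black diamonds are Plod1 and Plod2, and the ratios of Loxl2 spread from 0.07 to 2.80.

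The genes that work with these enzymes were counted from lists. Among prolyl hydroxylation partners, 2 of 8 tested genes rose after TGFb1 and 0 fell in the edgeR test without a block. They were P4ha3, another alpha subunit of prolyl 4-hydroxylase, at 6.81-fold from 1.48 ± 0.55 to 10.2 ± 4.55 CPM (adjusted p 0.012), and Lepre1, a prolyl 3-hydroxylase, at 1.70-fold (adjusted p 0.015). With the pair as a block, 3 of the 8 were called higher and 3 lower, the lower ones being Crtap, Ppib and Leprel1 with log2 changes of -0.27, -0.24 and -0.52 (adjusted p 0.0075, 0.011 and 0.029). P4ha3 reached about the level of P4ha2 in treated cells, on the CPM scale that ignores length. Of 7 tested folding and glycosylation genes 2 rose, the peptidyl-prolyl isomerases Fkbp7 (2.72-fold) and Fkbp14 (2.09-fold), and the block called 6 higher and 0 lower. Of 9 export and processing genes 3 rose: Bmp1, the procollagen C-proteinase that also activates lysyl oxidases (1.39-fold), its enhancer Pcolce2 (1.54-fold) and the related protease Tll1, which was under 1 CPM on average in both groups. The block called 4 higher and 2 lower, the lower ones being Adamts14 and Pcolce, with log2 changes of -1.56 and -1.37 (adjusted p 5.5e-05 and 0.0018).

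Of the collagen chains themselves 3 of 12 tested rose and 0 fell in the fit without the block: Col27a1 from 2.01 ± 0.53 to 52.9 ± 12.8 CPM, Col1a1 from 0.982 ± 0.571 to 8.59 ± 6.72 CPM, and Col5a3 from 0.0493 ± 0.024 to 0.999 ± 0.509 CPM. With the block 5 were called higher and 2 lower, the lower ones being the basement membrane chains Col4a1 and Col4a2, with log2 changes of -0.33 and -0.47 (adjusted p 0.011 and 0.016). Fn1, the fibronectin gene, and Bgn were the called genes among 5 other crosslinking and fibril genes, with 2.20- and 12.9-fold rises, and the same number, 2, were called with the block. Of 10 known TGF-beta targets 8 rose, among them Junb at 4.04-fold and Pmepa1 at 3.63-fold, and all 10 were called higher with the block. Hypoxia targets were mixed, with 2 of 20 higher (Vegfa at 6.26-fold and Ddit4 at 4.57-fold) and 2 lower (Egln3 by 6.31-fold and Ero1l by 1.42-fold), and 3 higher and 6 lower with the block. Among 12 heat shock genes, the family in which Serpinh1 is often grouped, 1 was called without the block, Bag3 at 1.34-fold higher. With the block 1 was called higher and 7 lower, among them Hsph1, Hspd1 and Hsp90aa1 with log2 changes of -0.81, -0.43 and -0.35 (adjusted p 6.7e-05, 0.00043 and 0.00092). Without the block the list medians were 0.05 on the log2 scale for the prolyl hydroxylation partners, 0.39 for folding, 0.25 for export, 0.46 for collagen chains, 1.72 for TGF-beta targets and -0.26 for heat shock genes, beside -0.01 for all genes.

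The collagen coating was compared with plastic in each stable line. These comparisons covered 13953 genes, and much of the transcriptome moved: 36.5% of genes were called in EV cells (19.2% higher, 17.3% lower) and 40.4% in Wisp1 cells (21.3% higher, 19.1% lower). With 5 of 10 members called in EV cells and 3 of 10 in Wisp1 cells, the members' shares were near those backgrounds. In both lines Loxl3 was higher and Serpinh1 lower on collagen, and each member called in 1 line had an estimate of the same sign in the other. Each of the 6 groups carries its own group code in its library titles, so plastic and collagen libraries differ in code. A difference tied to those codes cannot be told apart from the coating. The same holds for Wisp1 and for TGFb1 in their comparisons.

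Loxl3 measured 10.9, 12.2 and 10.6 CPM in EV cells on plastic and 21.0, 16.9 and 15.8 CPM on collagen. In Wisp1 cells it measured 12.8, 12.2 and 12.8 CPM on plastic and 31.1, 18.8 and 18.6 CPM on collagen. No collagen library overlapped the plastic range in either line, and replicate 1 was the highest collagen library in both. The rise was 1.61-fold in EV cells (log2 0.69 ± 0.18, edgeR adjusted p 0.012) and 1.86-fold in Wisp1 cells (log2 0.89 ± 0.18, adjusted p 0.0026). Without EV replicate 1 on collagen the EV estimate was 0.56 with an adjusted p of 0.0502. Htra2, the overlapping gene, had log2 changes of -0.04 and -0.09 in the same comparisons.

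Serpinh1 stood at 408, 441 and 443 CPM on plastic and 336, 366 and 344 CPM on collagen in EV cells. Wisp1 cells gave 432, 427 and 467 CPM on plastic and 361, 369 and 308 CPM on collagen. Both lines fell without overlap between substrates, by 1.21-fold in EV cells (edgeR adjusted p 0.0034) and 1.25-fold in Wisp1 cells (adjusted p 0.0011). These were small changes in the most abundant member.

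In the edgeR fit without a block, the other calls were seen in 1 line each. P4ha2 fell by 1.56-fold in EV cells, from 15.3, 15.8 and 12.7 CPM on plastic to 10.8, 9.54 and 7.42 CPM on collagen (edgeR adjusted p 0.0071). In Wisp1 cells its log2 change was -0.31 ± 0.16 with an adjusted p of 0.14, and the groups overlapped. Plod2 fell by 1.26-fold in EV cells, from 113, 116 and 108 CPM to 94.0, 88.9 and 79.4 CPM (edgeR adjusted p 0.0059). Its log2 change in Wisp1 cells was -0.21 ± 0.08 with an adjusted p of 0.06, and the groups did not overlap. Plod2 was called there by DESeq2 (adjusted p 0.0314) and by edgeR with another scaling (adjusted p 0.049). With the replicate block edgeR called both Plod2 and P4ha2 in Wisp1 cells, with adjusted p values of 0.0227 and 0.0429. Same-numbered plastic and collagen libraries did not deviate together in Wisp1 cells, however (r from -0.08 to -0.01). Wisp1 replicate 1 on collagen was the highest library of its group for both genes. Without it edgeR also called Plod2 and P4ha2 in Wisp1 cells, with adjusted p values of 0.00308 and 0.0271.

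Among the rare members, Loxl1 measured 1.13, 1.30 and 0.754 CPM in EV cells on plastic and 0.502, 0.617 and 0.654 CPM on collagen. The 1.76-fold fall had an edgeR adjusted p of 0.022, and it rests on 28 to 100 counts a library. That call was lost when plastic replicate 1 or 2 or collagen replicate 1 or 2 was left out, with adjusted p values of 0.057, 0.122, 0.0617 and 0.051. Loxl2 fell by 1.96-fold in Wisp1 cells, from 0.662, 0.683 and 0.491 CPM to 0.318, 0.355 and 0.219 CPM (edgeR adjusted p 0.0098), on 11 to 28 counts a library. In EV cells its log2 change was -0.61 ± 0.24 with an adjusted p of 0.059, and the groups did not overlap. Loxl1 in Wisp1 cells had a log2 change of -0.48 ± 0.26 (edgeR adjusted p 0.17), also without overlap.

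Loxl4, Plod1, Plod3 and P4ha1 were not called in either line. Their log2 changes on collagen ran from -0.08 to 0.09. P4ha1 was even on plastic, at 116 to 124 CPM in EV cells, and spread widely on collagen, with 135, 116 and 97.1 CPM in EV cells and 152, 113 and 91.1 CPM in Wisp1 cells. In both lines replicate 1 was the highest and replicate 3 the lowest collagen library.

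A fit over all 18 libraries, which shares its spread with the parental cultures, called 0 of the 10 members in EV cells and 10.8% of genes, with adjusted p values from 0.0514 for Loxl3 to 0.15 for P4ha2 among those named above. In that fit Loxl2 was also lost in Wisp1 cells, with an adjusted p of 0.146. In EV cells 6 members and in Wisp1 cells 5 had groups that did not overlap, beside 48.0% and 51.5% of all genes. Leukocyte markers summed to 8.97 to 10.9 CPM on plastic and 11.9 to 17.9 CPM on collagen in EV cells, and to 9.70 to 15.01 and 14.4 to 22.8 CPM in Wisp1 cells. Of 6 leukocyte markers tested 1 was called higher on collagen in each line, Emr1 in EV cells (0.342 to 0.907 CPM, edgeR adjusted p 0.0059) and Cd68 in Wisp1 cells (4.02 to 6.17 CPM, adjusted p 0.0091), with median log2 changes of 0.67 and 0.61. Lyz2, the most abundant on collagen, averaged 3.92 and 6.97 CPM in EV cells and 6.29 and 9.11 CPM in Wisp1 cells, on plastic and collagen. In EV cells Csf1r averaged 0.834 and 1.21 CPM, Itgam 0.258 and 0.419, Ptprc 0.341 and 0.447, and Cd79a 0.0377 and 0.0208. In Wisp1 cells these 4 averaged 1.15 and 1.36, 0.252 and 0.602, 0.218 and 0.420, and 0.0423 and 0.0320 CPM. Cd3e was at 0 in every one of these libraries, and the part of these transcripts in the substrate differences was not tested. Of the epithelial markers, Krt8 and Krt18 were called higher and Cdh1 lower on collagen in both lines, and Cldn4 and Cldn7 lower in EV cells.

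The paralog shares followed these changes. P4ha2 made up 17.6 ± 1.30% of the length-scaled P4ha1 and P4ha2 sum in EV cells on plastic and 12.3 ± 0.41% on collagen, and 16.3 ± 0.48% and 12.9 ± 0.46% in Wisp1 cells. Plod2 made up 48.3 ± 2.25% of the Plod sum in EV cells on plastic and 41.4 ± 1.87% on collagen. Loxl4 stayed above 86% of the Loxl sum in every stable-line library. Parental and stable cultures differ in vector, selection, medium change and the codes in their library titles together. These cannot be told apart, so levels were not tested between them. Untreated parental cells had the highest group mean of Loxl3. They had the lowest group means of Loxl1, Loxl4, Plod1, Plod2, P4ha1 and Serpinh1. The gap to the nearest other group was larger than the SD of both groups for Loxl3, Plod1 and Plod2 alone.

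**Figure D3:**
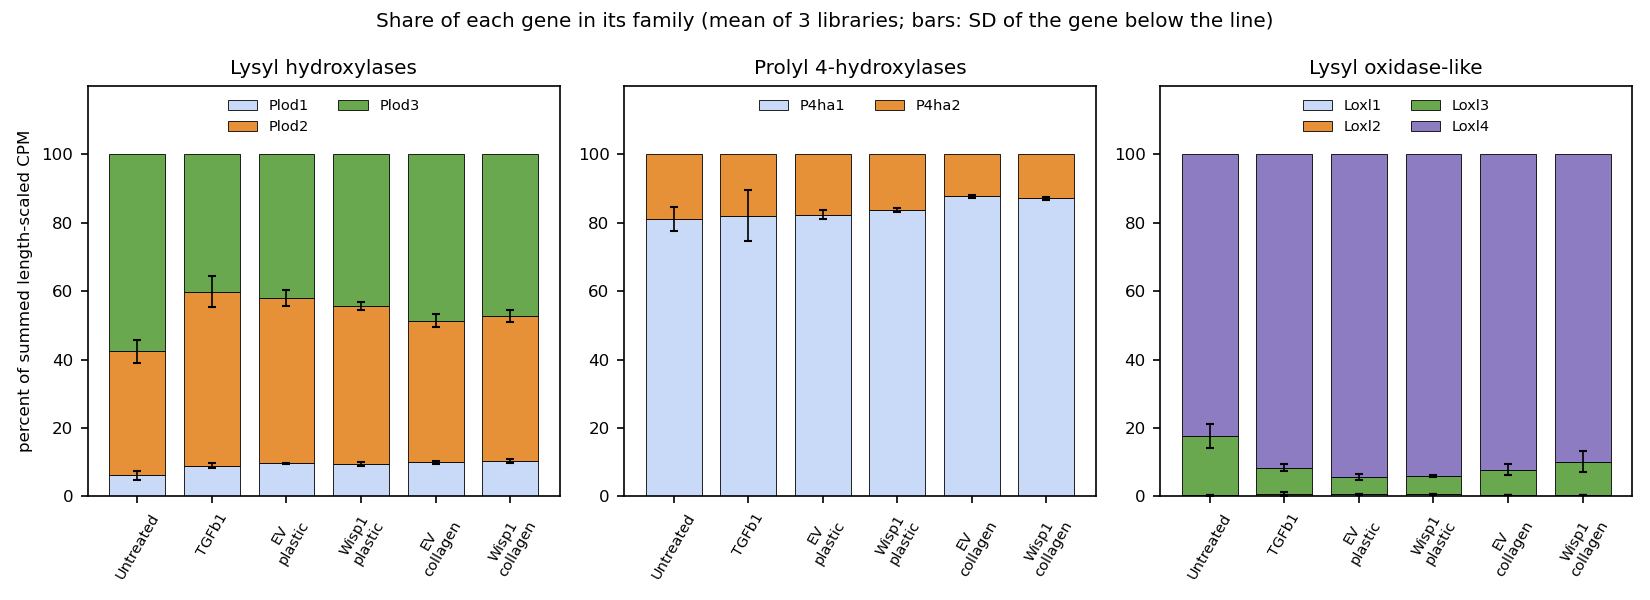
Share of each gene in the summed length-scaled CPM of the members of its family, in percent, as the mean of 3 libraries per group. The sums leave out P4ha3 and Lox, which are not members. SD bars stand at the top of the segments. Plod2 takes 36.3% of the Plod sum in untreated and 50.9% in TGFb1-treated cells, and Loxl4 makes up most of the Loxl sum in all 6 groups.

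On collagen, without a block, Ppib (cyclophilin B), Leprel2 and P4ha3 of the partner genes were higher in both lines and Crtap in EV cells. These were 4 of 8 tested genes in EV cells and 3 of 8 in Wisp1 cells, with none lower. The replicate block called 1 of the 8 lower in Wisp1 cells. Ppib, part of the prolyl 3-hydroxylation complex, changed from 367.5 ± 17.6 to 449.8 ± 13.6 CPM in EV cells (1.25-fold, edgeR adjusted p 0.0003). Export and processing genes split 4 higher and 2 lower of 8 in EV cells and 4 higher and 1 lower in Wisp1 cells. Adamts14, a procollagen N-proteinase, led with 1.76- and 1.66-fold rises, and Bmp1 rose by 1.32- and 1.38-fold. Collagen chains split 3 higher and 2 lower of 10 in EV cells, with the network chains Col4a1, Col4a2 and Col6a1 higher and Col1a2 and Col3a1, both under 1 CPM, lower. In Wisp1 cells the same 3 chains were higher and 1, Col1a2, was lower. Of 3 other crosslinking and fibril genes tested, Fn1 was lower in both lines (edgeR adjusted p 0.027 and 0.044). Tgm2, from the same list, was 1.54-fold higher in Wisp1 cells (adjusted p 0.012).

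The lists that hold chaperones and stress responders were mixed on collagen, as counted in the fit without a block. Of 7 folding genes 1 was higher and 3 lower in EV cells, and 3 were lower in Wisp1 cells, Sparc among them in both lines. Heat shock genes split 3 higher and 5 lower of 12 in each line: Hspa1b rose while the mitochondrial chaperonins Hspd1 and Hspe1 fell. Hypoxia targets were 6 lower and 0 higher of 20 in EV cells and 3 lower and 1 higher in Wisp1 cells, with Ldha and Pfkfb3 lower in both. Of 10 TGF-beta targets 4 were lower and 3 higher in EV cells, with Ctgf lower by 4.41-fold, and 5 were lower and 2 higher in Wisp1 cells. The 2 collagen comparisons use different libraries, and no test compared their list medians: the hypoxia targets had medians of -0.16 in EV cells and 0.06 in Wisp1 cells, and the export genes 0.37 and 0.08, beside 0.00 and 0.01 for all genes.

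Wisp1 was compared with EV on each substrate. On plastic, 0 of 10 members were called with edgeR, and 0 had an unadjusted p under 0.05. In all, 0.0143% of genes were called. DESeq2 and limma-voom called 0 members, against 0.129% and 0.0143% of genes. The largest estimates were P4ha2 at a log2 change of -0.21 ± 0.16 and Loxl3 at 0.16 ± 0.19, and the other 8 lay between -0.09 and 0.05. Loxl3 alone had groups that did not overlap, and only just, since the highest EV and lowest Wisp1 libraries were both at 12.2 CPM; 12.5% of all genes had none. With the pair as a block within each substrate 0 members were again called, against 3.15% of genes. After the third pair was left out of that fit, Plod2 (log2 -0.15, adjusted p 0.0469) and P4ha2 (log2 -0.37, adjusted p 0.0102) were called lower. The share of all genes called in that fit is not given here.

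On collagen, 0 of 10 members were called with edgeR and 0 had an unadjusted p under 0.05, with 0.0717% of all genes called, and DESeq2 and limma-voom called 0 members, against 0.287% and 0.0788% of genes. Loxl3 was the highest estimate, at 0.36 ± 0.18 with an adjusted p of 0.98, and Loxl2 the lowest, at -0.43 ± 0.26. Same-numbered libraries gave Loxl3 ratios of 1.48, 1.11 and 1.18. With pairs as a block within each substrate Loxl3 was the 1 member called, 1.26-fold higher with an adjusted p of 0.019, against 2.57% of genes in either direction and 1.63% called higher. That call was lost when the first or the third pair was left out. Loxl1, at 0.697, 0.789 and 0.676 CPM with Wisp1 and 0.502 to 0.654 CPM with EV, was the member whose groups did not overlap, beside 9.42% of all genes.

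The difference between the Wisp1 effects on collagen and on plastic, which is also the difference between the collagen effects in the 2 lines, called 0 of 10 members and 0.0% of genes in edgeR. Of the members 0, and of all genes 410, had an unadjusted p under 0.05, and DESeq2 and limma-voom each called 1 gene (0.00717%) and 0 members. P4ha2 had an estimate of 0.33 ± 0.23 and Plod2 of 0.13 ± 0.12, both with adjusted p values of 0.97, so a different collagen response of the lines was not shown for either. In the pathway lists 0 genes were called in either Wisp1 comparison without the block. With pairs as a block within each substrate, Col3a1 was lower in Wisp1 cells on both, from 0.693 to 0.0544 CPM on plastic (adjusted p 0.001) and from 0.252 to 0.0173 CPM on collagen (adjusted p 0.011). Pdia3, a protein disulphide isomerase of the endoplasmic reticulum, was 1.12-fold higher on each substrate (adjusted p 0.00083 and 0.00076). On plastic Ppib (1.08-fold, adjusted p 0.013) and Id1 (1.31-fold, adjusted p 0.0016) were also higher. On collagen Ltbp2 (1.11-fold, adjusted p 0.016), Hsp90aa1 (1.09-fold, adjusted p 0.011) and Hspa4l (1.09-fold, adjusted p 0.027) were lower. Of these lists, the difference between substrates had 1 call with that block, Id1 (adjusted p 0.013).

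**Figure D4:**
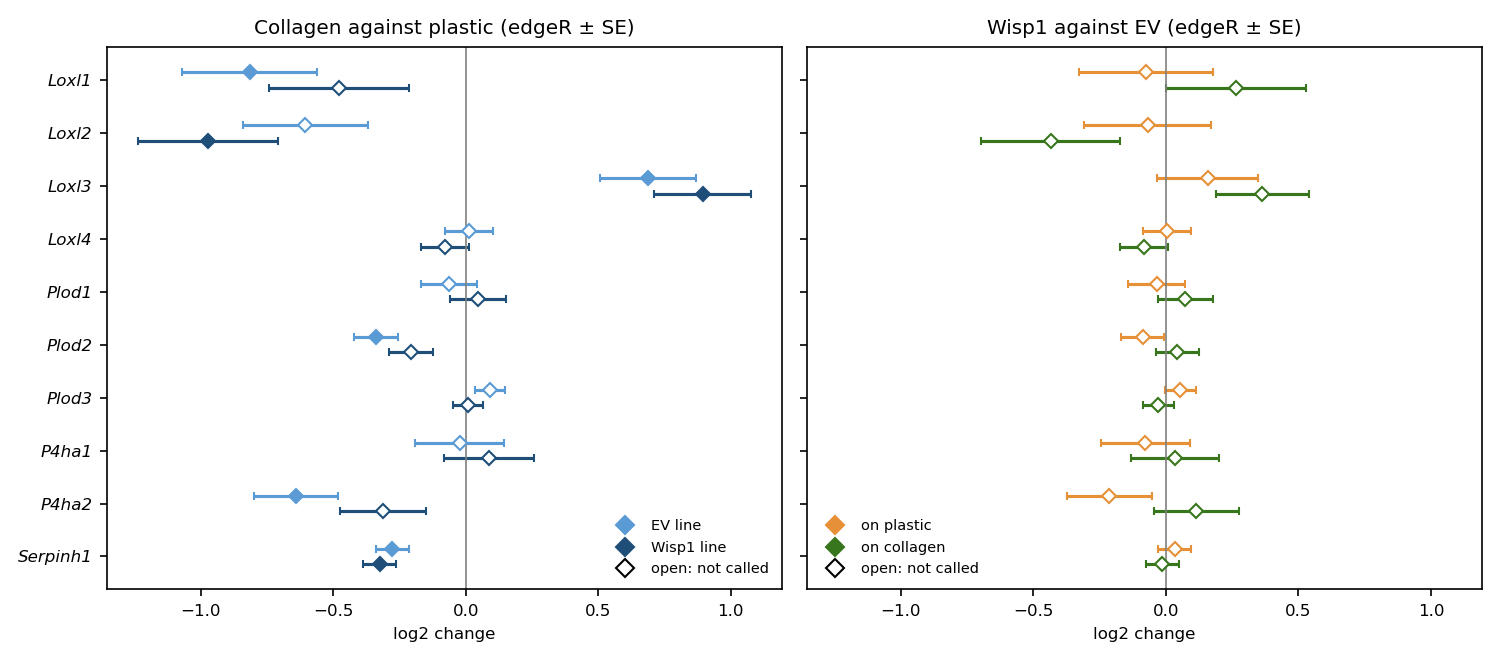
Log2 change with SE from edgeR for collagen against plastic in each stable line (left) and Wisp1 against EV on each substrate (right); filled diamonds have an adjusted p under 0.05. On the left Loxl3 is higher and Serpinh1 lower in both lines, and on the right no diamond is filled.

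Over the 18 libraries Loxl2 had the widest range of group means, 7.61-fold between TGFb1-treated parental cells and Wisp1 cells on collagen. The genes whose log2 CPM followed it most closely were Sparc, Daxx, Fbn1, Pdgfb and Il6, each with a Pearson correlation of 0.91 over 18 libraries. The libraries share treatment groups, and the 2 highest Loxl2 values are TGFb1 libraries, so the likeness is a description of this set. Fbn1, which encodes fibrillin-1, had means of 1.07 CPM in untreated and 3.65 CPM in treated parental cells and 0.208 CPM in Wisp1 cells on collagen.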

How the data were processed

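The authors deposited 1 table of raw read counts per gene symbol for each of 18 libraries, from stranded polyadenylated-RNA libraries per the labels' protocols. Tools listed in the submitters' processing notes, without roles, are STAR, BWA, HTSeq, CASAVA, limma and R 3.2.4, with the build mm9; the counting's strand setting and annotation were not found there. Reads outside any gene were 10.2% to 13.5%, and such rows were left out of library sizes. Parental and stable libraries were fitted separately with edgeR 4.0.16 (R 4.3.3): filterByExpr, TMM, robust quasi-likelihood fit, Benjamini-Hochberg adjustment over all tested genes, called below 0.05. Each SE was the size of the log2 change divided by the root of its F statistic. The edgeR fit without a block was tried on simulated data for TGFb1 against untreated and for Wisp1 against EV on plastic. Blocked fits and the other tools were not simulated. DESeq2 1.42.0 and limma-voom 3.58.1, other scalings, filters and left-out libraries were alternatives.

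Same-numbered untreated and TGFb1 libraries, which share an HJ code in their titles, deviated together (r = 0.79, 0.55 and 0.78). EV and Wisp1 libraries within a substrate did so too (r from 0.15 to 0.49). Between substrates this was mixed in EV cells (r = 0.13, -0.12 and 0.28) and not seen in Wisp1 cells (r from -0.08 to -0.01). Blocked values are printed beside members where they change a call, and as counts beside the lists after TGFb1. List counts for collagen against plastic come from the fit without a block unless stated. Several of them changed with the replicate block. Labels do not say whether replicates are separate cultures, so p-values measure the spread between these samples. Replicates differed beyond counting noise. Exon lengths come from GENCODE M21 (GRCm38) and are approximate for mm9 counts. Members and lists were chosen with earlier results of these data known. All 10 members were described, and of each other list up to 4 called genes by smallest adjusted p and 1 called the other way; Col3a1 on collagen and the genes called lower with the block were named after their values were seen. The 5 genes most like the member of widest range were named by Pearson correlation of log2 CPM.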

Additional observations from a re-analysis of the deposited data

How the results depend on the processing

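The number of members called after TGFb1 was 2, and it became 5 with DESeq2, 6 with all 18 libraries in 1 fit and 7 with the replicate block; with the block and pair 1, 2 or 3 left out it was 6, 5 and 7, and leaving out single replicates gave 1 to 3. For Wisp1 against EV on plastic the count of 0 became 2 with the block within each substrate and pair 3 left out, an alternative chosen after seeing the data, as were all that leave out a pair. On collagen the count of 0 became 1 with the block within each substrate and 1 with pair 2 left out of it. For collagen against plastic the count of 5 in EV cells became 0 with all 18 libraries in 1 fit and ranged from 3 to 5 over left-out replicates; that of 3 in Wisp1 cells became 5 with the replicate block and 2 with all 18 libraries in 1 fit, was 2 with a stricter filter that left 9 members tested, and ranged from 3 to 5 over left-out replicates. The replicate numbers did not consistently pair plastic with collagen libraries. The cause of these differences was not tested. For alternatives without a printed share of all genes called, the member counts stand without a background. No estimate reversed as a call. Of 1294 single-gene values under these alternatives, 1234 were counted as the same, and 38 gained and 12 lost a call. The other 10 were uncalled values that changed sign by at least 1 SE of the fit without a block. Values counted as the same kept their side of the threshold, and uncalled ones among them could change sign by less than 1 SE. Low counts limit Loxl1 and Loxl2, and RNA levels say nothing of enzyme activity or crosslinks.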
